A study of Rattus norvegicus with 15 samples.

Results

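Genes of the mitochondrial respiratory chain were followed through loss and return of the growth factor GDNF in cultured rat spermatogonial stem cells. The set was defined by gene symbol, as probe sets that carry 1 symbol in the platform annotation starting with Nduf, Uqcr, Sdh followed by a to d, Cox4 to Cox8, or Atp5. These prefixes matched 101 probe sets of 90 genes. A gene was kept where a probe set reached a log2 intensity of at least 4 (16 on the linear scale) on 3 or more of the 15 arrays, and its brightest such probe set stood for it. This left 84 genes, among 9002 genes with a tested probe set of 1 symbol on the whole array. They comprise 74 genes of the 5 complexes and 10 assembly factors: 35 for complex I with 6 assembly factors, 4 for complex II with 4 assembly factors, 7 for complex III, 12 for complex IV and 16 for complex V.

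The cells had been kept for about a month in serum-free medium with GDNF, without a label for genotype, strain or age, and then received 1 of 5 treatments, each in 3 independent cultures. Control cultures stayed in GDNF. Withdrawal cultures went 18 h without it, and the remaining groups had the same 18 h without GDNF followed by its return for 2, 4 or 8 h. There was no group kept without GDNF past 18 h, so time in culture after withdrawal and the return of GDNF cannot be told apart. In these bulk samples, fewer cells of a type and less RNA per cell also cannot be told apart. Of the 14 markers of undifferentiated spermatogonia and germ cells with a probe set, 10 passed the low-value filter, among them Ret, the GDNF receptor kinase, Etv5, Id4 and Sall4, whereas the probe sets for Gfra1, the GDNF co-receptor, and for Lin28a, Nanos3 and Thy1 did not.

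The respiratory chain sits in the inner mitochondrial membrane. Complexes I and II pass electrons from NADH and succinate to ubiquinone, complex III passes them on to cytochrome c, and complex IV hands them to oxygen. Complexes I, III and IV pump protons as they work, and complex V, the ATP synthase, uses the resulting gradient to make ATP. A few core subunits are encoded in mitochondrial DNA, while all members of the present set are nuclear genes. Many nuclear subunit genes are known targets of the transcription factors NRF1 and GABP. Stem cells are often described as relying more on glycolysis than their differentiating progeny.

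Promoter sequences are shown because NRF1 and GABP sites in these genes are a standard feature of the family. Promoters from RefSeq (assembly GRCr8, 250 bases before to 50 bases after the annotated start) were found for 78 of the 84 genes. The NRF1 palindrome (GCGC, then any base, then TGCGC) was present on either strand in 17 of the 78 (21.8%), against 11.2% of 8478 promoters of genes tested on the array and 4.25% of all 33469 promoters. The ETS core CCGGAAG, which GABP binds, was in 25 (32.1%, against 19.8% and 8.75%). The YY1 core AAGATGGCG was in 11 (14.1%, against 4.2% and 1.73%). At least 1 of the 3 was in 45 (57.7%, against 31.0% and 13.4%), and in no member promoter did matches to different motifs overlap. The following 60-base windows lie wholly before the annotated start, read along the gene from 5′ to 3′ with the motif in capitals. Ndufaf5 (chr3:147961552-147961611 on the plus strand) and Sdha (chr1:30764482-30764541 on the plus strand) hold the NRF1 palindrome, and Uqcrc2 (chr1:184599180-184599239 on the plus strand), Cox8a (chr1:213833624-213833683 on the minus strand), Sdhb (chr5:158547800-158547859 on the plus strand) and Atp5me (chr14:1464800-1464859 on the plus strand) hold the ETS core, which Cox8a carries at more than 1 place.
Ndufaf5: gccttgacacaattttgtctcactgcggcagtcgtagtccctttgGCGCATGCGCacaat
Sdha: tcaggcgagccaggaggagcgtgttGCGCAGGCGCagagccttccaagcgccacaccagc
Uqcrc2: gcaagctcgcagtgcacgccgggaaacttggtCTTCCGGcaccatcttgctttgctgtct
Cox8a: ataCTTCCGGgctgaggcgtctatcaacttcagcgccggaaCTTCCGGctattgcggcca
Sdhb: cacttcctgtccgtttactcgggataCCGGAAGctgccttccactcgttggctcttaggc
Atp5me: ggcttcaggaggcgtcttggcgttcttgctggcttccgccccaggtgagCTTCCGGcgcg
A match is a description of these letters and not a shown binding site.

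The members gave bright signals in these cells. The median member had a mean log2 intensity of 11.31, an intensity of 2532.1, while the median of all 15856 tested probe sets was 8.08, an intensity of 270.5, and 66 of the 84 members lay over log2 10. Intensities of different probe sets do not rank the genes, since probes differ in affinity. The spread between cultures was small, with a median residual SD of 0.0659 on the log2 scale for the members and 0.102 for all tested probe sets. At the edge of the filter, the dimmest member was the complex I assembly factor Ndufaf1 (mean log2 intensity 6.17), and the brightest of the 6 genes left out was Cox7a1, the heart and muscle isoform of subunit 7a, with a geometric mean intensity of 7.03 and 8.38 on its highest array. The other genes left out were Cox4i2 (4.39), Cox6a2 (3.34), Cox8b (5.17), Ndufa4l2 (4.5) and the pseudogene Cox6c-ps1 (6.7), given as geometric mean intensities; Cox6a2 and Cox8b are further muscle isoforms. Their ubiquitous counterparts Cox4i1, Cox6a1, Cox8a, Cox6c and Ndufa4 were all measured, as were the testis isoforms Cox6b2 and Cox7b2. A further 7 probe sets, among them those for Atp5mc1, Cox7a2, Uqcrb and Ndufs5, carry several symbols and were not used; Cox5a is represented only by a dim probe set, because its bright one carries a second symbol.

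Changes were tested with limma on log2 intensity across all 15 arrays, with Benjamini-Hochberg adjustment over the 15856 tested probe sets and an adjusted p under 0.05 as the threshold for a call. The median member moved little after 18 h without GDNF and members were more often lower than higher once it was returned. After withdrawal 7 of 84 members (8.33%) were higher and 4 (4.76%) lower than control, both shares below the 11.4% and 9.67% of all tested probe sets. At 2 h of replacement 2 were higher and 21 (25.0%) lower than after withdrawal, against 11.9% and 14.2%. At 4 h none were higher and 23 (27.4%) lower, against 14.6% and 16.0%, and 33 members had an unadjusted p under 0.05 in either direction. At 8 h none were higher and 17 (20.2%) lower, against 9.62% and 15.4%, with 30 members at an unadjusted p under 0.05. This background was not matched to the members in intensity or spread. With the filter raised to log2 6, 24, 24 and 17 members were lower at 2, 4 and 8 h. Of all probe sets past that filter 30.3%, 35.0% and 28.5% were then called in either direction, in place of 26.1%, 30.6% and 25.0%. The median member changed by 0.026 on the log2 scale after withdrawal, where all tested probe sets had a median of 0.014. At 2, 4 and 8 h the member medians were -0.102, -0.106 and -0.072, beside -0.021, -0.008 and -0.024 for all tested probe sets. Without 4 h array 2 the member median at 4 h was -0.056, beside -0.004 for all tested probe sets. With each array centred on its median, the member median at 8 h was -0.037, beside 0.011 for all tested probe sets. Of the 84 members, 67, 73 and 71 lay below 0 in these 3 comparisons, which share the withdrawal arrays and so are not independent of each other.

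**Figure D1:**
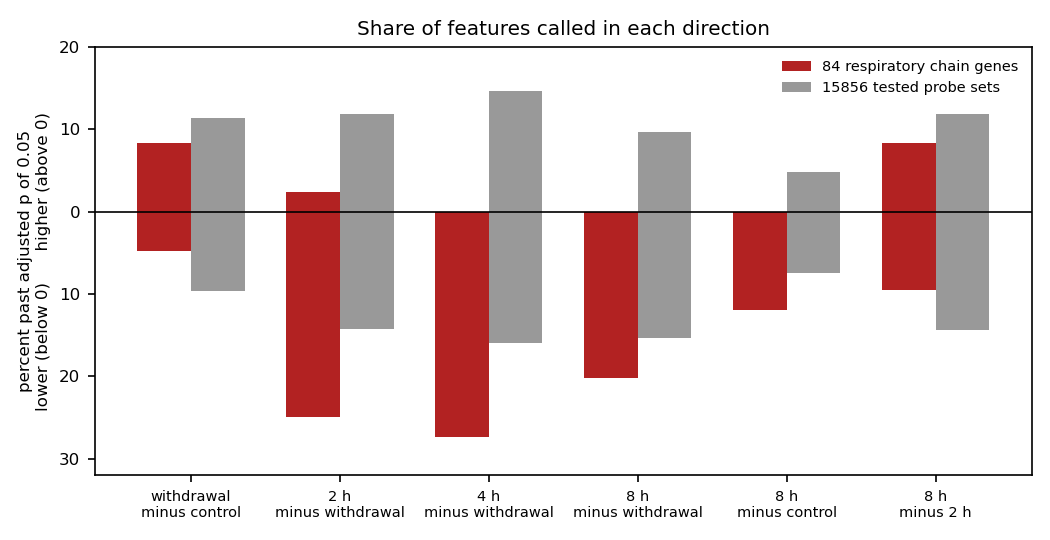
Percent of features past an adjusted p of 0.05 in each of the 6 comparisons (x axis), drawn upward for higher and downward for lower, for the 84 respiratory chain genes (red) and all 15856 tested probe sets (grey). The members' downward bars reach 25.0%, 27.4% and 20.2% at 2, 4 and 8 h against withdrawal, beside 14.2%, 16.0% and 15.4% for all probe sets.

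Cultures with GDNF back for 8 h were also set against control and against the 2 h cultures. Against control none of the members were higher and 10 (11.9%) were lower, beside 4.83% and 7.49% of all tested probe sets, with 24 members at an unadjusted p under 0.05. Against 2 h, 7 (8.33%) were higher and 8 (9.52%) lower, beside 11.8% and 14.4%. The F test for any difference among the 5 groups called 36 members (42.9%), a share below the 49.6% of all tested probe sets. Over the 6 comparisons 48 members had at least 1 call and 36 had none. The same count was not made over all tested probe sets, so it has no background beside it. The 99 calls ranged from 1.07-fold to 1.39-fold with a median of 1.13-fold.

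Per array, the median deviation of the members from their means over all 15 arrays was 0.025, 0.0 and 0.088 (log2) in the control arrays and 0.03, 0.076 and 0.059 in the withdrawal arrays. It was -0.038, -0.032 and -0.015 at 2 h, and -0.018, -0.03 and -0.025 at 8 h. The 2 h and 8 h arrays thus lay below all control and withdrawal arrays. The 4 h arrays were spread more widely, at -0.019, -0.108 and 0.015, and 4 h array 2 lay lowest of all 15. All tested probe sets stayed between -0.018 and 0.017 on every array.

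**Figure D2:**
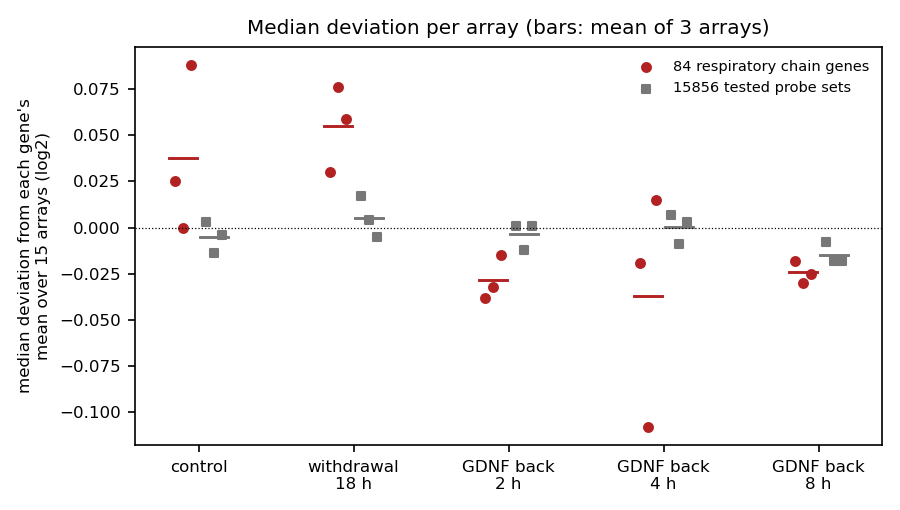
Median deviation, on the log2 scale, of the 84 members (red circles) and of all 15856 tested probe sets (grey squares) from each feature's mean over 15 arrays, by group, with 1 point per array and a bar at the group mean. The 4 h points run from -0.108 to 0.015, whereas the 2 h and 8 h points all lie below 0.

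Single arrays weighed on these counts. At 2 h the total of 23 called members became 8 without withdrawal array 2 and 15 without withdrawal array 3. It became 11 or 13 without 2 h array 1 or 2. Of all tested probe sets 26.1% were called at 2 h in either direction, and 17.9%, 21.7%, 19.0% and 19.8% in these fits in turn. Of the 8 left without withdrawal array 2, 7 were lower. The 23 at 4 h became 11 without withdrawal array 2, 13 without withdrawal array 3, and 14 or 11 without 4 h array 1 or 2. The share of all tested probe sets was 24.2%, 25.7%, 26.8% and 24.6% there, in place of 30.6%. The 17 at 8 h became 11 without withdrawal array 2 and 11 without 8 h array 3, with 19.7% and 19.2% of all in place of 25.0%. The 11 after withdrawal became 4 without withdrawal array 1 or 2 and 7 without control array 2. Of all tested probe sets 16.5%, 15.6% and 15.9% were called in these fits, in place of 21.1%. The 10 for 8 h against control became 4 without control array 3 and 6, 6 or 5 without 8 h array 1, 2 or 3. Among all tested probe sets the shares were 8.89%, 8.27%, 8.73% and 8.65%, in place of 12.3%. The 15 for 8 h against 2 h became 7 without 2 h array 1 and 9 without 8 h array 2 or 3. There 19.3%, 19.0% and 21.1% of all were called, in place of 26.2%. At 4 h no member was called higher under any of these settings, and at 8 h 1 was, without withdrawal array 3. Centring each array on its median left 12 lower and none higher at 4 h, while 30.4% of all tested probe sets were called there. It turned the split of 8 h against 2 h to 9 higher and 6 lower. Quantile normalization turned the withdrawal split to 9 higher and 2 lower.

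Other measures moved with the groups, and apart from 1 covariate fit their part in the results was not tested. The log2 ratio of the 3′ to the 5′ GAPDH control probe sets was -0.15 to -0.10 after withdrawal, -0.27 to -0.25 at 2 h, -0.18 to -0.12 at 4 h, -0.17 to -0.13 at 8 h and -0.20 to -0.19 in control. The beta-actin ratio was 1.93 to 2.09 in control, 2.17 to 2.24 after withdrawal, 1.97 to 2.12 at 2 h, 2.01 to 2.23 at 4 h and 1.98 to 2.16 at 8 h. Of 16 mesenchymal markers 10 were tested, and their mean log2 intensity was 8.23 to 8.60 in control, 7.87 to 8.57 after withdrawal, 7.73 to 7.97 at 2 h, 7.89 to 8.32 at 4 h and 8.40 to 8.68 at 8 h. Col6a1, Pdgfrb, Lum, Postn and Meox2 were below the filter. With that mean as a covariate, a fit chosen after seeing the data, 13 members were lower at 2 h, 23 at 4 h and 16 at 8 h. Of all tested probe sets 22.5%, 32.5% and 22.7% were called there in either direction. The comparison of 8 h with 2 h had 6 calls in place of 15, and 12.2% of all in place of 26.2%. Of 12 Sertoli cell markers 5 were tested, at a mean log2 intensity of 7.31 to 7.36 in control, 6.85 to 6.98 after withdrawal and 6.91 to 7.16 after replacement. The 10 tested germ cell markers had a mean log2 intensity of 10.59 to 10.77 in control, 10.12 to 10.35 after withdrawal and 10.31 to 10.59 after replacement. Ret, Bcl6b, Etv5 and Id4 are among these 10. Whether their mean followed the number of germ cells or the level of such genes per cell was not tested. Acta2 was the 1 tested marker of 10 for Leydig or peritubular cells, and Cd52 the 1 of 9 with a probe set for immune or blood cells. Control array 1, withdrawal array 1 and 4 h array 1 were also left out together, a choice made after seeing the data. This gave 22, 20 and 15 members lower at 2, 4 and 8 h, and 5 calls after withdrawal. Of all tested probe sets 25.2%, 25.4%, 20.9% and 15.2% were called in these comparisons, in either direction.

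Of the 99 calls, 28 in 14 genes held under every alternative run for them, including each array left out in turn, and these genes carry the account below. Leaving out probe sets with several targets could be run for 97 of the 99 calls. Some of the other 71 calls are described too, and arrays whose removal ended such a call are given beside it. Other settings also ended many calls and are named for only some of them. Without the intensity trend 42 of the 99 calls ended, without the low-value filter 38 did, and with only the groups compared 36 did. Median centring ended 32, and the mesenchymal covariate ended 31 and reversed 1.

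Of the 35 complex I genes 8 (22.9%), 9 (25.7%) and 8 (22.9%) were lower at 2, 4 and 8 h of replacement and none higher. Of all tested probe sets 14.2%, 16.0% and 15.4% were lower, and 11.9%, 14.6% and 9.62% higher. In at least 1 of the 6 comparisons 18 complex I genes were called, a count not made over all tested probe sets. Ndufb10, an accessory subunit of the membrane arm, was called in both directions. Its intensities were 1969, 1829.5 and 2083 in the control arrays, 2225, 2510.2 and 2396 after withdrawal, 1913, 1912 and 2047 at 2 h, 1916, 1844 and 2055 at 4 h and 1896, 1808 and 1932 at 8 h. The withdrawal arrays were above every other array and the 8 h arrays overlapped with control. Ndufb10 rose after withdrawal (log2 change 0.28 ± 0.06 SE, adjusted p = 0.00315) and fell by 17.6% by 2 h (log2 change -0.28 ± 0.06 SE, adjusted p = 0.00286). Against withdrawal it fell by 18.4% at 4 h (log2 change -0.29 ± 0.06 SE, adjusted p = 0.00136) and fell by 20.9% at 8 h (log2 change -0.34 ± 0.06 SE, adjusted p = 0.000602).

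Ndufb4, another membrane-arm subunit, had intensities of 4465, 4486 and 4833 in the control arrays, 4938, 4996 and 4957 after withdrawal, 4666, 4376 and 4619 at 2 h, 4259, 4098 and 4364 at 4 h and 4162, 4190.1 and 4042 at 8 h. All withdrawal arrays were above all control arrays and all arrays at 4 and 8 h. Ndufb4 fell at 4 h (log2 change -0.23 ± 0.04 SE, adjusted p = 0.000395) and 8 h (log2 change -0.27 ± 0.04 SE, adjusted p = 0.000152). Its smaller rise after withdrawal (0.11, adjusted p = 0.0491) ended on leaving out control array 1 or 2 or withdrawal array 1 or 2 or 3 (adjusted p = 0.0906 to 0.151).

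Ndufb2, also of the membrane arm, lay below control in all later groups. The arrays read 2852, 2809.7 and 3017 in the control arrays, 2490.3, 2589 and 2666 after withdrawal, 2432, 2255 and 2367 at 2 h, 2306, 2089 and 2386 at 4 h and 2278, 2207 and 2346 at 8 h. No array outside the control group reached the lowest control array. At 8 h the gene was still lower than in control (log2 change -0.35 ± 0.05 SE, adjusted p = 0.000448), having dropped by 21.3%. The fall after withdrawal itself (-0.16, adjusted p = 0.0316) ended without control array 1 or 3 or withdrawal array 1 or 2 (adjusted p = 0.051 to 0.117).

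Ndufab1 is the mitochondrial acyl carrier protein, which is both a subunit of complex I and part of mitochondrial fatty acid synthesis. Its intensities were 5359.7, 4875 and 5268 in the control arrays, 5298, 5484 and 5301 after withdrawal, 4241, 4396 and 4239 at 2 h, 5253, 4166 and 5325 at 4 h and 4728, 4859.7 and 4923 at 8 h. The 2 h arrays were below all control and withdrawal arrays, and 4 h array 2 was low while the other 4 h arrays were not. Ndufab1 fell by 19.9% at 2 h (log2 change -0.32 ± 0.07 SE, adjusted p = 0.00385). The 4 and 8 h changes did not pass (-0.13, adjusted p = 0.163 and -0.15, adjusted p = 0.138).

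In the arm that oxidises NADH, Ndufs1, the largest core iron-sulphur subunit, read 2282, 2398 and 2352 in the control arrays, 2565, 2593 and 2400.3 after withdrawal, 2275, 2305 and 2321 at 2 h, 2205, 2113 and 2196 at 4 h and 2242, 2193 and 2270.2 at 8 h. Its 4 h and 8 h arrays were all below its withdrawal arrays. Ndufs1 fell at 4 h (log2 change -0.21 ± 0.04 SE, adjusted p = 0.000505) and 8 h (log2 change -0.17 ± 0.04 SE, adjusted p = 0.00335). Ndufv2, an iron-sulphur subunit of the same arm, had intensities of 3100.0, 3249.9 and 3274 in the control arrays, 3359.7, 3552 and 3418 after withdrawal, 3405, 3376 and 3692 at 2 h, 3263, 3068 and 3447 at 4 h and 3151, 3008 and 2990.2 at 8 h. It was lower at 8 h than at 2 h in every array (log2 change -0.19 ± 0.05 SE, adjusted p = 0.00726). Against withdrawal the 8 h change (-0.18, adjusted p = 0.0137) ended without withdrawal array 2 or 8 h array 3 (adjusted p = 0.0529 to 0.0597). Ndufv1, which binds FMN and takes electrons from NADH, fell at 4 h (-0.13, adjusted p = 0.0101), a call that ended when only the groups compared were fitted (adjusted p = 0.0631).

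The accessory subunit Ndufa6 fell at 2 h (-0.26, adjusted p = 0.0112) and 8 h (-0.26, adjusted p = 0.0116), and each of these ended without withdrawal array 2 (adjusted p = 0.0526) at 2 h and withdrawal array 2 (adjusted p = 0.0515) at 8 h. Ndufs7, a core iron-sulphur subunit, fell at 2 h (-0.19, adjusted p = 0.00964), which ended without 2 h array 1 (adjusted p = 0.0526). Ndufa1 (-0.20, adjusted p = 0.0211) and Ndufs6 (-0.13, adjusted p = 0.0377) also fell at 2 h, and their calls ended without withdrawal array 2 or 2 h array 1 or 2 (adjusted p = 0.0512 to 0.0943) and withdrawal array 2 or 3 or 2 h array 1 or 2 (adjusted p = 0.0926 to 0.128). Ndufb7 was higher after withdrawal (0.21, adjusted p = 0.0202), and the call ended without control array 2 or withdrawal array 2 or 3 (adjusted p = 0.0517 to 0.097). Ndufa13 and Ndufa7 were higher at 8 h than at 2 h (0.18, adjusted p = 0.0297 and 0.24, adjusted p = 0.016), calls that ended without 2 h array 1 or 2 or 8 h array 1 or 3 (adjusted p = 0.0742 to 0.103) and 2 h array 1 or 8 h array 3 (adjusted p = 0.0576 to 0.061). Both calls also ended with the mesenchymal covariate. The second Ndufa7 probe set, which is dimmer, had the opposite sign there (-0.27, adjusted p = 0.0535). Ndufa12 and Ndufa8, 2 further accessory subunits, fell at 4 h (-0.12, adjusted p = 0.0355 and -0.17, adjusted p = 0.0123), and these ended without withdrawal array 2 or 3 or 4 h array 1 or 2 (adjusted p = 0.0692 to 0.13) and without withdrawal array 3 (adjusted p = 0.0626). Ndufb1 also fell at 4 h (-0.22, adjusted p = 0.0406), which ended without withdrawal array 1 or 2 or 3 or 4 h array 1 or 2 (adjusted p = 0.0506 to 0.179). Ndufa9 was lower at 8 h than at 2 h (-0.13, adjusted p = 0.0294), which ended without 2 h array 1 or 2 or 8 h array 2 (adjusted p = 0.0657 to 0.149). In 17 complex I genes no comparison passed, with log2 changes between -0.31 and 0.22, among them Ndufa4, which is now assigned to complex IV.

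Among the 6 complex I assembly factors, 2 (33.3%) were lower at 4 h and 2 (33.3%) at 8 h, against 16.0% and 15.4% of all tested probe sets. Ndufaf5, a methyltransferase-like protein that modifies Ndufs7 and whose promoter window above holds the NRF1 palindrome, read 454, 449 and 450.1 in the control arrays, 537, 515 and 500.3 after withdrawal, 472, 491 and 455 at 2 h, 473, 425 and 444 at 4 h and 463, 449.5 and 428 at 8 h. Its 4 and 8 h arrays were all below the withdrawal arrays. Ndufaf5 fell at 4 h (log2 change -0.21 ± 0.05 SE, adjusted p = 0.00849) and 8 h (log2 change -0.21 ± 0.05 SE, adjusted p = 0.00999), having risen after withdrawal (0.20, adjusted p = 0.0172), a call that ended without withdrawal array 1 (adjusted p = 0.0695). Ndufaf7 fell at 4 h (-0.25, adjusted p = 0.0343), which ended without withdrawal array 2 or 4 h array 2 or 3 (adjusted p = 0.0595 to 0.172). Ndufaf4 was higher at 2 h (0.16, adjusted p = 0.048), and that call ended without withdrawal array 2 or 3 or 2 h array 1 or 3 (adjusted p = 0.0951 to 0.19).

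Complex II is also the succinate dehydrogenase of the citric acid cycle. Of its 4 subunit genes 1 was lower at 2 h and 2 at 4 h. None were called at 8 h, where 1 had an unadjusted p under 0.05. Of all tested probe sets 14.2%, 16.0% and 15.4% were lower at 2, 4 and 8 h. With only 4 genes, these counts are too small to set complex II apart from that background. The flavoprotein Sdha had intensities of 2399, 2709.5 and 2581 in the control arrays, 2512, 2766 and 2648 after withdrawal, 2367, 2384 and 2316 at 2 h, 2378, 2531 and 2243 at 4 h and 2509.9, 2568 and 2588 at 8 h. Its 2 h arrays were below its withdrawal arrays. Sdha fell at 2 h (log2 change -0.16 ± 0.05 SE, adjusted p = 0.0285) and 4 h (log2 change -0.15 ± 0.05 SE, adjusted p = 0.0389), but the first ended without withdrawal array 2 or 3 or 2 h array 1 or 2 or 3 (adjusted p = 0.055 to 0.123) and the second without withdrawal array 2 or 3 or 4 h array 1 or 3 (adjusted p = 0.0804 to 0.164). Sdhd, a membrane anchor, fell at 4 h (-0.15, adjusted p = 0.0382), and its second probe set did so too (-0.27, adjusted p = 0.0109), although the first call ended without withdrawal array 2 or 3 or 4 h array 1 or 2 (adjusted p = 0.0587 to 0.153). The iron-sulphur subunit Sdhb was lower at 8 h than in control (-0.12, adjusted p = 0.0356), which ended without control array 2 or 3 or 8 h array 1 or 2 (adjusted p = 0.0757 to 0.148). The other anchor, Sdhc, was called in no comparison, with log2 changes between -0.07 and -0.01.

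Of the 4 complex II assembly factors, Sdhaf3, which helps to mature the iron-sulphur subunit, had the largest change of the whole set after withdrawal. It read 139, 136 and 144 in the control arrays, 198, 213 and 163 after withdrawal, 152, 160.3 and 104 at 2 h, 178, 173 and 147 at 4 h and 173, 153 and 156 at 8 h. The withdrawal arrays were above all control and all 2 h arrays. The F test for any difference among the 5 groups called none of the 4 complex II assembly factors, beside 49.6% of all tested probe sets. Sdhaf3 rose after withdrawal (log2 change 0.45 ± 0.14 SE, adjusted p = 0.0355) and fell at 2 h (log2 change -0.48 ± 0.14 SE, adjusted p = 0.0224), with calls that ended without control array 1 or 2 or 3 or withdrawal array 1 or 2 (adjusted p = 0.0633 to 0.138) and without withdrawal array 1 or 2 or 2 h array 3 (adjusted p = 0.06 to 0.101). Sdhaf4 fell at 4 h (-0.25, adjusted p = 0.0263), which ended without withdrawal array 1 or 2 or 4 h array 2 (adjusted p = 0.0871 to 0.0926), and Sdhaf1 and Sdhaf2 were called in no comparison.

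**Figure D3:**
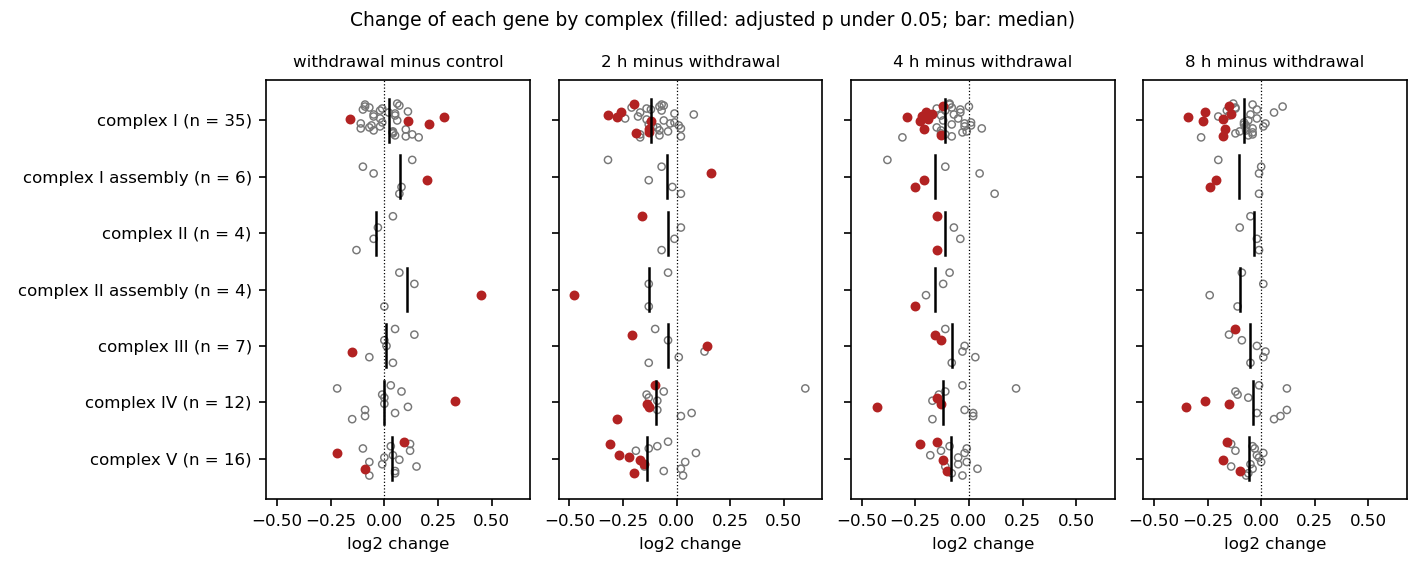
Log2 change of each of the 84 genes (points, x axis) by complex (rows) in the 4 comparisons of withdrawal with control and of 2, 4 and 8 h with withdrawal; filled points have an adjusted p under 0.05 and bars are medians. The medians of complex I lie at 0.023, -0.12, -0.106 and -0.083 from left to right, and those of complex V at 0.033, -0.138, -0.084 and -0.052.

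Complex III had 7 genes, of which 1 was higher and 1 lower at 2 h, 2 lower at 4 h and 1 lower at 8 h. The shares lower were 14.3%, 28.6% and 14.3%, beside 14.2%, 16.0% and 15.4% of all tested probe sets. Uqcrc2, a core protein of the matrix side, stood against the general direction. Its intensities were 3184, 3404 and 3380.2 in the control arrays, 3239, 3380.2 and 3427 after withdrawal, 3840.4, 3582 and 3672 at 2 h, 3351, 3383 and 3203 at 4 h and 3341, 3312 and 3267 at 8 h. The 2 h arrays were above all withdrawal and all 8 h arrays. Uqcrc2 rose at 2 h (log2 change 0.14 ± 0.04 SE, adjusted p = 0.0139) and was lower again at 8 h than at 2 h (log2 change -0.16 ± 0.04 SE, adjusted p = 0.00666). A second probe set gave the same directions (0.30, adjusted p = 0.00118 and -0.23, adjusted p = 0.00574). The rise on the first probe set ended without withdrawal array 1 or 2 h array 1 (adjusted p = 0.0548 to 0.0696).

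Uqcr11, a small accessory subunit, fell at 2 h (log2 change -0.21 ± 0.06 SE, adjusted p = 0.0117), where its arrays read 2227, 2186 and 2236 against 2572, 2634 and 2487 after withdrawal and did not overlap. The call ended without withdrawal array 2 (adjusted p = 0.051). The other core protein, Uqcrc1, fell at 4 h (-0.13, adjusted p = 0.0314), which ended without withdrawal array 2 or 3 or 4 h array 1 or 2 (adjusted p = 0.0859 to 0.111). The Rieske iron-sulphur protein Uqcrfs1 was lower after withdrawal (-0.15, adjusted p = 0.0428), which ended without control array 2 or 3 or withdrawal array 1 or 2 (adjusted p = 0.0896 to 0.178), and Uqcr10 was lower at 8 h (-0.12, adjusted p = 0.0367), which ended without withdrawal array 1 or 2 or 3 or 8 h array 1 or 2 or 3 (adjusted p = 0.0529 to 0.116). Uqcrh and Uqcrq were called in no comparison.

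Complex IV, cytochrome c oxidase, had 12 genes by symbol, with 4, 3 and 3 lower at 2, 4 and 8 h and none higher. These were 33.3%, 25.0% and 25.0%, beside 14.2%, 16.0% and 15.4% of all tested probe sets. Cox7a2l showed the largest fall among all members at 4 and 8 h. It encodes a relative of subunit 7a that joins complex III to complex IV in respiratory supercomplexes. Its intensities were 2467, 2442 and 2668 in the control arrays, 2755, 2735 and 2701 after withdrawal, 2476, 2523 and 2502 at 2 h, 1997, 2055 and 2029 at 4 h and 2036, 2218 and 2182 at 8 h. All 4 h and 8 h arrays were below all control, withdrawal and 2 h arrays. Cox7a2l fell by 25.8% at 4 h (log2 change -0.43 ± 0.04 SE, adjusted p = 1.67e-06) and fell by 21.5% at 8 h (log2 change -0.35 ± 0.04 SE, adjusted p = 2.03e-05). At 8 h it was lower than in control (log2 change -0.24 ± 0.04 SE, adjusted p = 0.00156) and than at 2 h (log2 change -0.22 ± 0.04 SE, adjusted p = 0.00107). The 2 h change was small (-0.13, adjusted p = 0.0317), and that call ended without withdrawal array 1 or 2 or 3 or 2 h array 1 or 2 or 3 (adjusted p = 0.0524 to 0.0907).

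Cox8a is a small subunit whose promoter window above holds the ETS core. Its intensities were 3394, 3624 and 3779.8 in the control arrays, 2787, 3330.1 and 3665 after withdrawal, 2622, 2643 and 2732 at 2 h, 2725, 2696 and 3239 at 4 h and 3337, 3609 and 3228 at 8 h. The 2 h arrays were below all withdrawal and all 8 h arrays. Cox8a was higher at 8 h than at 2 h (log2 change 0.35 ± 0.09 SE, adjusted p = 0.00866), but not with the mesenchymal covariate (adjusted p = 0.703). The fall at 2 h (-0.28, adjusted p = 0.0267) ended without withdrawal array 2 or 3 or 2 h array 1 or 2 or 3 (adjusted p = 0.0508 to 0.124). Cox4i1, the ubiquitous form of the regulatory subunit 4, was lower at 2 h (-0.10, adjusted p = 0.0384), which ended without withdrawal array 2 or 3 or 2 h array 1 or 2 (adjusted p = 0.0779 to 0.131). That call also ended with median centring, quantile normalization and the mesenchymal covariate, among other settings (adjusted p up to 0.276). The small subunit Cox6c was lower than after withdrawal at 2 h (-0.14, adjusted p = 0.0258), which ended without withdrawal array 2 or 3 or 2 h array 1 or 2 or 3 (adjusted p = 0.0517 to 0.0774). It was also lower at 4 h (-0.13, adjusted p = 0.028), which ended without withdrawal array 1 or 2 or 3 or 4 h array 1 or 2 (adjusted p = 0.0501 to 0.127). At 8 h it was lower again (-0.15, adjusted p = 0.021), which ended without withdrawal array 3 or 8 h array 3 (adjusted p = 0.064 to 0.0883). Against control it was lower at 8 h as well (-0.15, adjusted p = 0.0367), which ended without control array 1 or 3 or 8 h array 1 or 2 or 3 (adjusted p = 0.0617 to 0.144).

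Isoforms of subunits 6b and 7b that are known from testis could be set beside their ubiquitous forms, by change and not by level. The testis form Cox6b2 read 365, 314 and 394 in the control arrays, 477, 439 and 424 after withdrawal, 420.0, 411 and 429 at 2 h, 415, 359.7 and 412 at 4 h and 382, 371 and 364 at 8 h. Its withdrawal arrays were above all control and all 8 h arrays. Cox6b2 rose after withdrawal (log2 change 0.33 ± 0.08 SE, adjusted p = 0.0096), which ended when only the groups compared were fitted or 3 arrays were left out (adjusted p up to 0.0659), and fell at 8 h (-0.26, adjusted p = 0.027), a call that ended without withdrawal array 1 or 2 or 8 h array 2 or 3 (adjusted p = 0.0547 to 0.107). The ubiquitous Cox6b1 was not called after withdrawal (0.00, adjusted p = 0.987) and fell at 4 h (-0.15, adjusted p = 0.0245), which ended without withdrawal array 2 or 3 or 4 h array 1 or 2 (adjusted p = 0.0512 to 0.0963). The difference between the isoforms was not tested. Neither Cox7b2 nor Cox7b was called in any comparison, with Cox7b2 at 3867 ± 232 (SD, n = 3) in control and 4009.6 ± 148 after withdrawal. Late germ cell markers outside this set were mostly below the filter: of 10 with a probe set, Sycp1 and Sycp3 passed beside Cox6b2, while Prm1, Prm2, Tnp1, Tnp2, Acrv1, Ldhc and Spo11 did not.

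Cox5a had the widest spread of log2 changes, up to 0.60 at 2 h, and none passed (adjusted p = 0.186 at 2 h). Its dim probe set read 91.4, 281 and 118 in the control arrays, a wide spread between replicates.

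Complex V had 16 genes, with 6 (37.5%), 4 (25.0%) and 3 (18.8%) lower at 2, 4 and 8 h and none higher. Of all tested probe sets 14.2%, 16.0% and 15.4% were lower. In at least 1 comparison 11 complex V genes were called, again without a count over all probe sets. The catalytic beta subunit Atp5f1b had intensities of 4985, 4786 and 4875 in the control arrays, 5020.2, 5574 and 5325 after withdrawal, 4120.3, 4238 and 4496 at 2 h, 4345, 4336 and 4906 at 4 h and 4622, 5106 and 4758 at 8 h. The 2 h and 4 h arrays were all below the withdrawal arrays. Atp5f1b fell by 19.2% at 2 h (log2 change -0.31 ± 0.05 SE, adjusted p = 0.000989) and remained lower at 4 h (log2 change -0.23 ± 0.05 SE, adjusted p = 0.00527). At 8 h the difference from withdrawal did not pass (-0.14, adjusted p = 0.0835). Its partner in the catalytic head, the alpha subunit Atp5f1a, read 5909.7, 6278 and 6296 in the control arrays, 6516, 6499.9 and 6705 after withdrawal, 6491, 6265 and 6362 at 2 h, 5887, 5918 and 5966 at 4 h and 5859, 5877 and 5949.7 at 8 h. The 4 and 8 h arrays were below all withdrawal arrays, with a fall at 4 h (log2 change -0.15 ± 0.03 SE, adjusted p = 0.0018) and at 8 h (log2 change -0.16 ± 0.03 SE, adjusted p = 0.00166) and none called at 2 h (-0.04, adjusted p = 0.305).

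Subunits e and f lie in the membrane part where ATP synthase dimers form. Atp5me, subunit e, whose promoter window above holds the ETS core, read 1589, 1553 and 1599 in the control arrays, 1560.4, 1621 and 1547 after withdrawal, 1402, 1389 and 1278 at 2 h, 1556, 1445 and 1569.5 at 4 h and 1561, 1560.4 and 1560.4 at 8 h. Only the 2 h arrays were low, below every array of the other groups. Atp5me fell at 2 h (log2 change -0.22 ± 0.04 SE, adjusted p = 0.00234) and was higher at 8 h than at 2 h (log2 change 0.20 ± 0.04 SE, adjusted p = 0.0033). Atp5mf, subunit f, had intensities of 10327, 10134 and 10896 in the control arrays, 11252, 10979.9 and 10589 after withdrawal, 9802, 9456 and 9867 at 2 h, 10188, 9743 and 10320.2 at 4 h and 9622, 9668 and 9575 at 8 h. Its 2 h and 8 h arrays were below all withdrawal arrays. Atp5mf fell at 2 h (log2 change -0.17 ± 0.03 SE, adjusted p = 0.00246) and 8 h (log2 change -0.18 ± 0.03 SE, adjusted p = 0.0013), and the 4 h change (-0.12, adjusted p = 0.0191) ended without withdrawal array 1 or 2 or 4 h array 2 (adjusted p = 0.0544 to 0.0809).

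Atp5if1 encodes the inhibitory factor that stops the synthase from running backwards and splitting ATP. It read 2761, 3037 and 2886 in the control arrays, 2490.2, 2413 and 2551 after withdrawal, 2574, 2661 and 2687 at 2 h, 2327, 2569 and 2475 at 4 h and 2551, 2483 and 2468 at 8 h. Every array outside the control group was below every control array. Atp5if1 fell after withdrawal by 14.1% (log2 change -0.22 ± 0.04 SE, adjusted p = 0.00235) and was still lower than control after 8 h of GDNF (log2 change -0.21 ± 0.04 SE, adjusted p = 0.00565). Both comparisons share the control arrays.

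Atp5mc3, which encodes the c subunit of the rotor ring, was lower at 2 h (-0.27, adjusted p = 0.011) and higher at 8 h than at 2 h (0.25, adjusted p = 0.0154); the second call ended without 8 h array 2 (adjusted p = 0.068) and turned to -0.01 with the mesenchymal covariate. The 2 h call also ended with that covariate (adjusted p = 0.124). The peripheral stalk subunits Atp5pb and Atp5po were lower at 8 h than in control (-0.13, adjusted p = 0.00989 and -0.14, adjusted p = 0.0227), and the second ended without control array 2 or 3 or 8 h array 2 or 3 (adjusted p = 0.063 to 0.0926). The Atp5pb call ended with median centring and without the intensity trend (adjusted p up to 0.0526). Another stalk subunit, Atp5pf, and the small subunit Atp5mk fell at 2 h (-0.20, adjusted p = 0.024 and -0.15, adjusted p = 0.0404), which ended without withdrawal array 2 or 2 h array 1 or 2 (adjusted p = 0.0573 to 0.0899) and without withdrawal array 1 or 2 or 3 or 2 h array 1 or 2 or 3 (adjusted p = 0.0612 to 0.107). The stalk subunit Atp5pd fell at 4 h (-0.10, adjusted p = 0.034), which ended without withdrawal array 3 or 4 h array 1 or 2 or 3 (adjusted p = 0.0507 to 0.161). Atp5f1c, Atp5f1d, Atp5f1e, Atp5mg and Atp5mpl were called in no comparison, with log2 changes between -0.19 and 0.15.

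**Figure D4:**
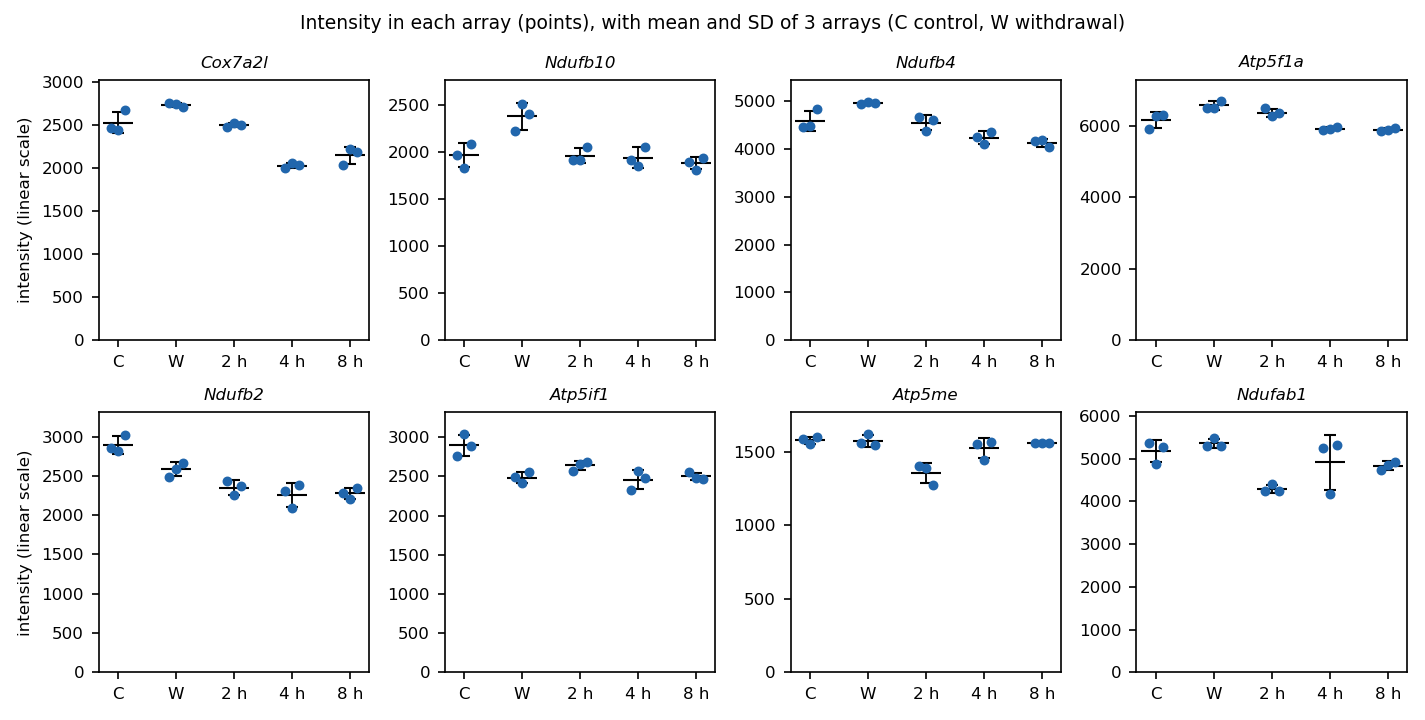
Intensity on the linear scale (y axis from 0) of 8 members in each array (points), with the mean and SD of 3 arrays per group; C is control, W is 18 h withdrawal, and 2, 4 and 8 h are times of GDNF replacement. Cox7a2l is low at 4 and 8 h, Ndufb10 is high in W alone, Atp5if1 and Ndufb2 lie below control in all later groups, and Atp5me is low at 2 h alone.

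Known regulators of mitochondrial gene expression were followed beside the subunits. Tfam, the mitochondrial transcription and packaging factor, was 2974 ± 123 (mean intensity ± SD, n = 3) in control, 2125 ± 104 after withdrawal, 2582 ± 20.5 at 2 h, 2933 ± 69.3 at 4 h and 2678 ± 69.6 at 8 h. It fell after withdrawal (log2 change -0.49 ± 0.04 SE, adjusted p = 1.07e-06) and rose at 2 h (log2 change 0.28 ± 0.04 SE, adjusted p = 0.000231), 4 h (log2 change 0.47 ± 0.04 SE, adjusted p = 9.79e-07) and 8 h (log2 change 0.33 ± 0.04 SE, adjusted p = 3.99e-05). Tfam was lower at 8 h than in control, a call that ended without control array 1 or 3 or 8 h array 1 or 2 (adjusted p = 0.0766 to 0.105). Nrf1 rose at 4 h (log2 change 0.68 ± 0.11 SE, adjusted p = 0.000221), and its fall after withdrawal (-0.36, adjusted p = 0.0248) ended without control array 1 or 3 or withdrawal array 3 (adjusted p = 0.0657 to 0.105). Nrf1 was also higher at 8 h than at 2 h, a call kept under all alternatives run for it. Against withdrawal its 8 h change was called too, which ended without withdrawal array 3 or 8 h array 1 (adjusted p = 0.092 to 0.0989). Gabpa, the DNA-binding part of GABP, rose at 4 h (log2 change 0.36 ± 0.07 SE, adjusted p = 0.00144). Its 2 h rise (0.24, adjusted p = 0.0245) ended without withdrawal array 2 or 3 or 2 h array 1 or 3 (adjusted p = 0.0612 to 0.0838). The nuclear receptor Esrra and the co-activator Ppargc1a, which act in the same programme, were called in none of the 6 comparisons, with Ppargc1a at -0.90, adjusted p = 0.0743 at 4 h. The related co-activator Pprc1 had small calls of -0.12, adjusted p = 0.0395 at 2 h and 0.11, adjusted p = 0.0493 at 4 h. The first ended without any 1 withdrawal array or 2 h array 1 or 2 (adjusted p = 0.0683 to 0.179), and the second without any 1 withdrawal or 4 h array (adjusted p = 0.0502 to 0.148). Pprc1 was also higher at 8 h than at 2 h, which ended without 2 h array 2 (adjusted p = 0.0551) and with the mesenchymal covariate. Myc and Ppargc1b were below the filter, and the probe sets for cytochrome c, Cycs, match several symbols. Not all regulators moved with Tfam: Twnk, the helicase that unwinds mitochondrial DNA, rose after withdrawal (0.41, adjusted p = 0.000147) and fell at 2 h (-0.30, adjusted p = 0.00202) and 4 h (-0.23, adjusted p = 0.00835). Of the 17 regulators tested, 4 (23.5%) were higher and 3 (17.6%) lower after withdrawal, against 11.4% and 9.67% of all tested probe sets, and at 4 h the counts were the same, against 14.6% and 16.0%.

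Members called lower did not all carry the motifs. Of the 19 members lower at 2 h with a promoter 15 held at least 1 of the 3 motifs, beside 30 of the 59 others. At 4 h it was 11 of 19 beside 34 of 59, and at 8 h 7 of 14 beside 38 of 64. The 4 members lower after withdrawal held none, beside 45 of the 74 others. These shares are given as a description and were not tested.

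Other mitochondrial gene groups gave context. Of 73 mitochondrial ribosomal protein genes, which build the ribosomes that translate the mitochondrially encoded subunits, 9 (12.3%) were higher and 1 (1.37%) lower after withdrawal, where 11.4% and 9.67% of all tested probe sets were. At 2 h 2 (2.74%) were higher and 10 (13.7%) lower, against 11.9% and 14.2% of all. At 4 h none were higher and 28 (38.4%) lower, against 14.6% and 16.0% of all, and at 8 h none were higher and 21 (28.8%) lower, against 9.62% and 15.4%. Of the 73 genes 36 and 31 had an unadjusted p under 0.05 at 4 and 8 h. The shares of all tested probe sets given here are also the background of the lists that follow. Mrpl34 rose after withdrawal (0.26, adjusted p = 0.00379) and fell at 4 h (-0.43, adjusted p = 3.75e-05), and Mrpl41 fell at 4 h (-0.51, adjusted p = 9.52e-06). Of 14 citric acid cycle genes 3 (21.4%), 5 (35.7%) and 5 (35.7%) were lower at 2, 4 and 8 h, against 14.2%, 16.0% and 15.4% of all, and none higher, with 8 of them at an unadjusted p under 0.05 at 4 h. Suclg1, a subunit of succinyl-CoA ligase, fell at 8 h (-0.38, adjusted p = 0.000295). Of 25 genes for electron carriers and other assembly factors 8 (32.0%) were lower and 2 (8.0%) higher at 4 h. At 8 h 10 of 25 were lower and none higher. Atp5if1 is also on that list but was counted with the members and not among the 25. Bcs1l, which inserts the Rieske protein into complex III, rose after withdrawal (0.28, adjusted p = 0.00296) and fell at 4 h (-0.35, adjusted p = 0.000285). Of 33 genes for import and carriers 7 (21.2%) were lower and 3 (9.09%) higher at 4 h, against 16.0% and 14.6% of all, and 5 (15.2%) were lower at 8 h, against 15.4%. Of 7 uncoupling and antioxidant genes 3 (42.9%), 2 (28.6%) and 1 (14.3%) were lower at 2, 4 and 8 h. Among them Ucp2, an inner membrane carrier, was higher at 8 h (0.78, adjusted p = 0.00067) and Prdx3, the mitochondrial peroxiredoxin, fell at 4 h (-0.34, adjusted p = 0.000152). The 2 mitochondrially encoded genes with a tested probe set, COX1 and COX2, were called in no comparison, at 0.08, adjusted p = 0.156 and -0.03, adjusted p = 0.602 at 4 h, and 1 had an unadjusted p under 0.05 at 8 h.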

How the data were processed

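Total RNA from 15 cultures was amplified, biotin-labelled and hybridised to single-colour arrays. The deposited table gives, for each sample, a linear-scale intensity per probe set. GCRMA and Partek 6.3 are named in the submitters' processing notes; their settings were not stated in the sources used. GCRMA in general normalizes arrays together, so a shift common to most genes would be hidden, and its background estimate sets low values. The number of arrays limits the precision.

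Values were taken to log2 without further scaling. Control probe sets (57) were left out, and 15856 of 31099 probe sets passed the low-value filter. Gene symbols came from the platform annotation and were compared with a RefSeq table (GRCr8), which changed 0 member symbols. Group means were fitted with limma 3.58.1 in R 4.3.3 (lmFit, eBayes with an intensity trend, 10 residual degrees of freedom), after tests on simulated data; p-values are two-sided. Named genes were those with the largest calls per comparison (up to 5 each way), the 3 smallest F test p per complex, the complex II subunits and isoform pairs; other members are named to account for calls and were chosen after their values were seen. Members and lists were chosen with earlier results of these data known. Alternatives covered filter, scaling, trend, groups fitted, replicate block, probe set choice, each array left out and a marker covariate. Figures and tables used Python 3.11.15.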

Additional observations from a re-analysis of the deposited data

How the results depend on the processing

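The members' median change moved by less than the spread of single arrays under the alternatives run in each of the 6 comparisons, except at 4 h without 4 h array 2, where it was -0.056 in place of -0.106. Counts of called members were less steady. The share of all tested probe sets called in either direction is given beside them. With no low-value filter the members called, now among 90, were 6 after withdrawal (against 11) and 12 at 2 h (23). They were 13 at 4 h (23) and 6 for 8 h against control (10). The shares of all were 8.58%, 10.3%, 13.0% and 4.68%, against 21.1%, 26.1%, 30.6% and 12.3%. With no intensity trend the members called were 6 after withdrawal, 15 at 2 h, 12 at 4 h and 3 for 8 h against control. They were 8 for 8 h against 2 h (15) and 23 for any difference among groups (36). The shares of all were 19.3%, 24.0%, 28.7%, 10.8%, 24.0% (against 26.2%) and 46.0% (49.6%). Fitting only the groups compared gave 4 after withdrawal (13.7% of all) and 9 at 4 h (22.1%). It gave 4 for 8 h against control (7.83%) and 23 for 8 h against 2 h (28.7%). Median centring gave 12 at 4 h and 4 for 8 h against control, while the shares of all stayed at 30.4% and 12.4%. Leaving out 3 arrays together gave 5 after withdrawal (15.2% of all), and the mesenchymal covariate gave 6 for 8 h against 2 h (12.2%). Both were chosen after seeing the data. Leaving out each array in turn gave 4 to 9 calls after withdrawal, 8 to 24 at 2 h, 11 to 26 at 4 h and 11 to 16 at 8 h. It gave 4 to 14 for 8 h against control, 7 to 14 for 8 h against 2 h and 26 to 45 for any difference. In the same order the shares of all were 15.6% to 18.8%, 17.9% to 23.7%, 24.2% to 28.3%, 19.1% to 22.6%, 8.27% to 10.7%, 19.0% to 21.2% and 43.4% to 49.4%. With the replicate number as a block the counts were 10, 27, 24, 18, 11, 17 and 43 in the same order. The shares of all were 22.2%, 27.1%, 31.8%, 26.0%, 12.9%, 27.2% and 51.2%. The labels do not say that the numbers pair cultures. Of 30 same-numbered pairs 8 had a residual correlation over 0.1 (range -0.138 to 0.389), and 13 of 30 correlated best with their own number. Control array 1 correlated at 0.236 with withdrawal array 1 and at 0.238 with 4 h array 1. Control array 2 correlated at 0.292 with 4 h array 2. Withdrawal array 1 and 4 h array 1 correlated at 0.389. Whether these arrays share a source was not tested. Of the 99 single-gene calls 2 reversed: Ndufa7 for 8 h against 2 h, at -0.02 with probe sets averaged per gene, and Atp5mc3 for the same comparison, at -0.01 with the mesenchymal covariate. Of the others, 28 kept their call under the alternatives run for them. The causes were not tested. Called changes were as small as 1.07-fold, so the scaling of the arrays limits what can be said of single genes, and dim probe sets such as that of Cox5a were too variable to show changes of this size.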
